A study of Arabidopsis thaliana with 6 samples.

Results

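The genes described here are those carried by the chloroplast genome of Arabidopsis thaliana, in seedlings that had never seen light. They were taken as every row whose locus identifier begins with ATCG and whose mean over the libraries (baseMean, in normalized counts) was at least 10. This gave 67 genes out of 109 chloroplast rows, in a table of 24487 genes of which 20222 reached the same mean. The libraries came from whole seedlings aged 4 days and kept at 22 °C in continuous dark, after a cold and dark treatment of the seeds on agar plates. Of the 6 libraries, 3 came from the line labelled atino80-6 and 3 from wild type, and both genotypes had the same growth conditions. The line carries the name of INO80 (AT3G57300), the ATPase of a chromatin remodelling complex in the nucleus, and the labels name neither the kind of allele nor the number of independent lines. INO80 RNA itself averaged 31503 ± 2887 normalized counts under the label atino80-6 and 5839 ± 302 under wild type (SD, n = 3 each). The targeted gene was thus 5.40-fold higher where a loss of its RNA would have made it lower, so every direction given here rests on the labels as deposited. Nothing in the labels says that the repeats were separate cultures, and the p-values then measure the spread between these samples alone.

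A plastid holds its own small genome, a remnant of a cyanobacterial ancestor, with genes for parts of the photosynthetic complexes and for parts of its own transcription and translation machinery. Most genes of photosynthesis are read by a bacterial-type polymerase whose core subunits, rpoA, rpoB, rpoC1 and rpoC2, are encoded in the plastid and whose promoter-recognising sigma factors are encoded in the nucleus. A nuclear-encoded phage-type polymerase, RPOTp, reads the rpo genes themselves and other housekeeping genes. In the dark the plastids of a seedling stay etioplasts, without chlorophyll and with little of the photosynthetic apparatus. Plastid genes are grouped in clusters that are read into common transcripts, and the ribosomal RNA genes lie in the large inverted repeat, which is present in 2 copies.

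The bacterial-type polymerase reads promoters with the boxes TTGACA and TATAAT. The best pair of such boxes, 16 to 18 bases apart, within the 250 bases before the coding start is printed here for psbA, whose promoter is the textbook example, and for genes that passed the test in either direction. Sequences are 5′ to 3′ on the coding strand from the RefSeq chloroplast genome of TAIR10.1, and capitals mark the boxes.
psbA: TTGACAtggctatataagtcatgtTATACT
psbK: TTTATTttttccttatataaaaaaTATATT
psbI: TTGGTAtcaaaattagatatttgaTATAAA
atpA: CTGATTaattatttccttacgatTATTAT
rpoB: TTGCTAgatcgaattctatggaTATGAT
The psbA pair (Pltd:1530-1559, minus strand, 115 to 86 bases before the coding start) matched 11 of the 12 box letters. The pairs of psbK (Pltd:6939-6968, plus strand) and atpA (Pltd:11508-11536, minus strand) matched 8, and those of psbI (Pltd:7503-7532, plus strand) and rpoB (Pltd:26396-26423, minus strand) matched 9. The annotation has 83 chloroplast protein-coding genes when those in the inverted repeat are counted in both copies. Of these, 48 had a best pair of 9 letters, 23 of 8, 8 of 10, 2 of 7 (the copies of ndhB) and 2 of 11. The genes that passed the test were thus among the usual scores, on the side that rose and on the side that fell. The best of many placements is taken for each gene and most genes score alike, so this score could hardly set them apart. Windows from 250 bases before to 50 bases after the coding start were searched on both strands. Each word was searched on its own, so that the words may share letters. TTGACA was found for 17.9% of the 56 windows of tested and named chloroplast genes, where ycf1 counts in both copies. It was found for 15.7% of the 83 chloroplast windows and 20.1% of 27443 nuclear ones. TATAAT was found in 44.6%, 43.4% and 40.3% of these windows. A match is a match of letters only, and no start of transcription was measured.

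Before the single genes, the level of chloroplast RNA in each library has to be known, because 1 library stood apart. Chloroplast rows held 0.0157%, 0.0160% and 0.0686% of the reads in atino80-6 1, 2 and 3, against 0.0240%, 0.0196% and 0.0144% in wild type 1, 2 and 3. The 95% Wilson interval of the library atino80-6 3 ran from 0.0675% to 0.0698%, and intervals of this kind cover counting error only. Its share was 3.82 times the mean of the other 5 libraries, which overlapped between the genotypes. The mean difference between the genotypes, 0.0141 percentage points higher in atino80-6, therefore rested on that library, and without it the difference was -0.00349 percentage points. Mitochondrial rows moved in the same direction in it, with 0.123% of the reads in atino80-6 3 and 0.0483% to 0.0732% in the other 5. All libraries held between 18446028 and 24156610 reads in genes, so the chloroplast rows of a library rested on 2902 to 12947 reads. The labels do not say how messenger RNA was selected, and plastid RNA lacks the long poly(A) tails of nuclear RNA. Whether such selection had a part in the difference between libraries was not tested, and in whole seedlings fewer cells with plastids and less plastid RNA per cell cannot be told apart.

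The high level in atino80-6 3 was not shared evenly by the genes. It was the highest of the 6 libraries for 53 of the 67 genes, and its ratio to the mean of the other 5 ranged from 0.879 for rpl32 to 19.7 for a 23S ribosomal RNA copy, with a median of 2.31. By role, the median ratio was 13.0 for ribosomal RNA, 6.88 for rbcL, 4.63 for the cytochrome b6f complex and 4.25 for photosystem I. It was 1.42 for ribosomal protein genes and 1.19 for the polymerase genes. The counts of genes past the test are therefore also given without this library.

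The comparison of the genotypes asks which chloroplast transcripts differ in the dark between atino80-6 and wild type. Of the 67 genes, 5 rose in atino80-6 (psbK, psbI, atpA, atpB and atpE) and 2 fell (rpoB and rpoC1), in limma on log2(normalized count + 1) with Benjamini-Hochberg adjustment over all 20222 genes and a threshold of 0.05. These are 7.46% and 2.99% of the chloroplast genes, whereas 17.7% of all tested genes rose and 16.6% fell. At an unadjusted p under 0.05, 8 chloroplast genes passed in limma, these 7 and ndhK. The share of all tested genes at that unadjusted threshold was not taken, and it cannot be below the shares at the adjusted one. At the adjusted threshold, limma voom on the recovered reads called the same 7. The median log2 change was 0.40 over the chloroplast genes and 0.0004 over all tested genes, and the chloroplast median was -0.16 without atino80-6 3. The sign of 17 genes turned when that library was left out, and none of these had passed the test with 6 libraries.

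Without atino80-6 3 the same 5 genes rose and 6 fell, against 19.1% of all tested genes that rose and 17.5% that fell in that fit. The 6 were rpoB and rpoC1 again, with psbE, rbcL, a 16S copy (ATCG00920) and a 23S copy (ATCG01180). Of the 67 genes, the authors' deposited table had 6 higher, the same 5 and trnL, and the same 2 lower, against 17.4% and 16.5% of the tested genes. That table gives no p-value for 4 of the 67 (rbcL, ATCG00920, ATCG00950 and ATCG01180). Between the genotypes, 9 genes had all 3 atino80-6 libraries above all 3 wild type libraries and 3 had them all below, or 13.4% and 4.48% of the 67, against 24.1% and 24.2% of all tested genes. Beside the genes past the test, those above were atpF, petN, ndhK and trnG, and the gene below was rps2.

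Precision differed from that of nuclear genes of like abundance. Among genes with a mean of 50 to 200 normalized counts, 4 of 22 chloroplast genes passed (18.2%), with a median standard error of 0.34 on the log2 scale, whereas 33.6% of 4408 nuclear genes passed, with a median of 0.19. Among those with 10 to 50 counts, 1 of 38 chloroplast genes passed (2.63%), with a median standard error of 0.53, whereas 25.3% of 2980 nuclear genes passed, with a median of 0.37. Among those with 200 to 600 counts, 2 of 7 chloroplast genes passed (28.6%), with a median standard error of 0.81, whereas 36.3% of 5285 nuclear genes passed, with a median of 0.12. The 7 include rbcL and psbA, for which atino80-6 3 was 6.88 and 10.9 times the mean of the other libraries.

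**Figure D1:**
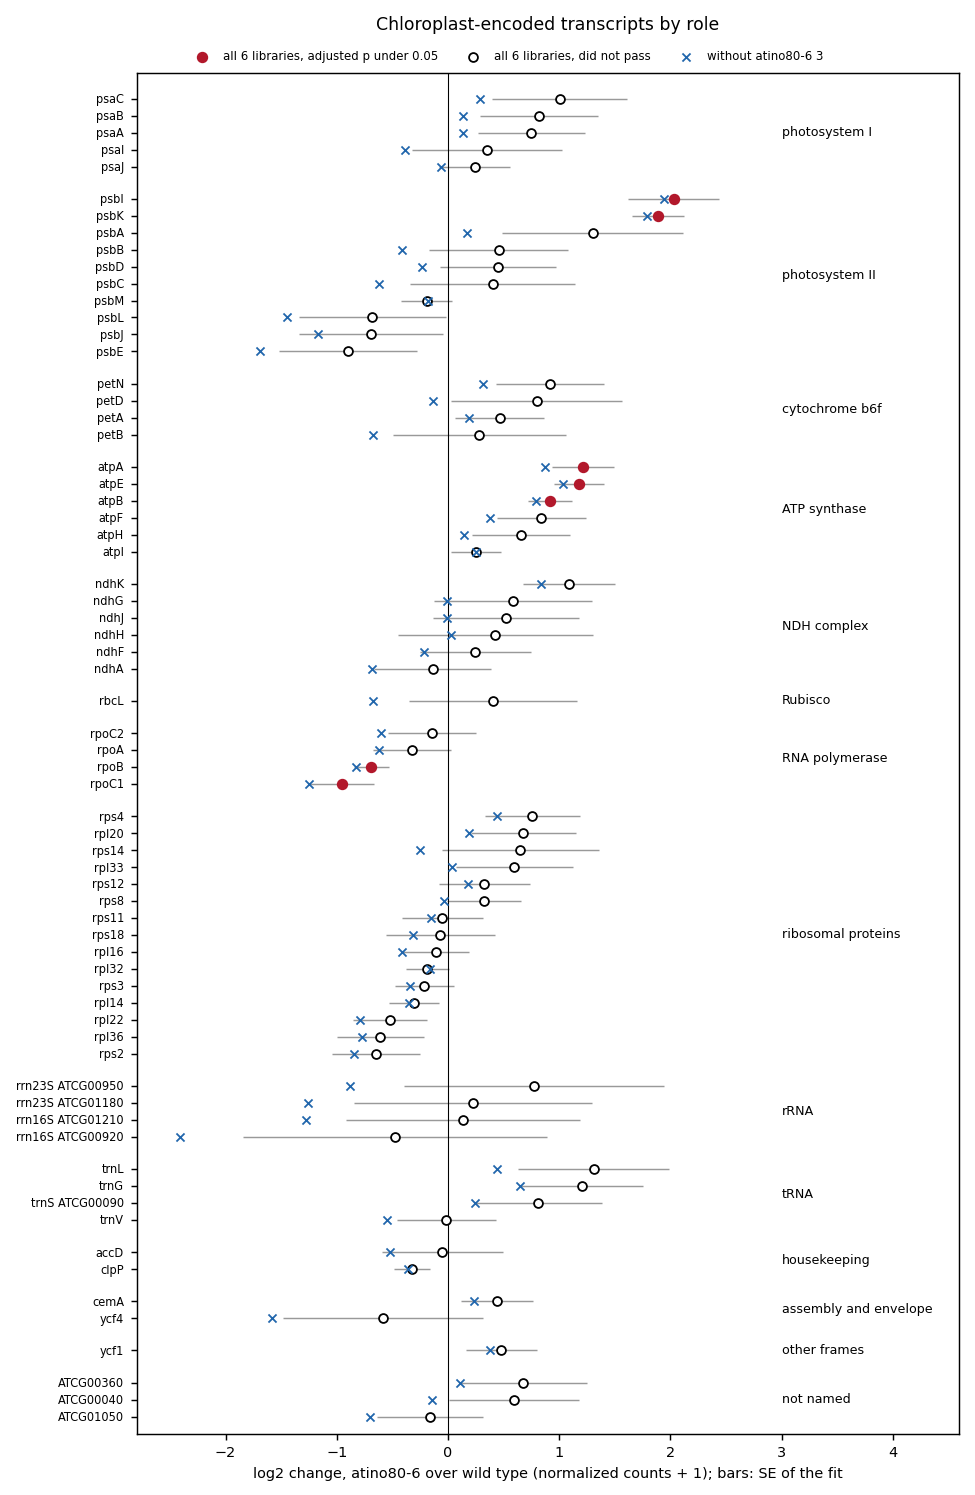
Log2 change of atino80-6 over wild type for each of the 67 chloroplast genes, grouped by role, with bars for the standard error of the fit; red points passed the test, open points did not, and blue crosses are the changes without atino80-6 3. The 7 genes past the test keep their sign without that library, while the ribosomal RNA rows, rbcL and psbE lie farther to the left without it.

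Per base of gene, the most abundant transcripts were those of short genes, for which FPKM over a gene shorter than a sequenced fragment is a rough scale. The ribosomal protein gene rpl32 averaged 49.8 ± 5.39 FPKM in atino80-6 and 57.8 ± 15.8 FPKM in wild type (SD, n = 3 each). The photosystem I gene psaJ averaged 51.4 ± 22.3 FPKM in atino80-6 and 41.0 ± 8.04 FPKM in wild type (SD, n = 3 each). The libraries of the genotypes overlapped for both, and neither gene passed. Over all 67 genes the mean of the 6 libraries ran from 0.254 FPKM for ndhF to 53.8 FPKM for rpl32, with a median of 3.53 FPKM.

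Photosystem II, which takes electrons from water, was represented by 10 tested genes, of which 2 rose and 0 fell. Both encode small subunits of the core and lie next to each other on the same strand, 380 bases apart in the RefSeq annotation. psbK had 18.1, 21.5 and 24.5 FPKM in atino80-6, against 6.65, 4.95 and 5.10 FPKM in wild type. Every atino80-6 library was above every wild type library, and the means differed 3.83-fold (log2 change 1.89 ± 0.23, limma adjusted p = 0.00043). psbI, a subunit that helps to keep the core stable, had 20.3, 27.1 and 28.5 FPKM in atino80-6, against 9.29, 2.90 and 7.06 FPKM in wild type. The genotypes were again apart, by 3.94-fold (log2 change 2.03 ± 0.41, limma adjusted p = 0.0053). In wild type, psbI rests on 25, 7 and 19 reads and psbK on 30, 20 and 23. Without atino80-6 3 the log2 changes were 1.79 for psbK and 1.94 for psbI.

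The genes of the larger core proteins of photosystem II did not pass. psbA, which encodes the D1 protein that is replaced as light damages it, had 8.04, 4.11 and 60.8 FPKM in atino80-6, against 4.39, 6.85 and 4.43 FPKM in wild type. A single library, atino80-6 3, was about 10.9 times the mean of the others, and the other atino80-6 libraries lay on both sides of the wild type ones. Its log2 change was 1.30 ± 0.81 with 6 libraries (limma adjusted p = 0.25) and 0.17 without that library. psbB, psbC and psbD, for the antenna proteins CP47 and CP43 and the D2 protein, had log2 changes of 0.45, 0.40 and 0.45 that did not pass, and -0.41, -0.62 and -0.24 without atino80-6 3. psbM, a small subunit, had 39.9, 32.2 and 35.3 FPKM in atino80-6, against 54.6, 40.3 and 30.6 FPKM in wild type, with overlap. psbE, psbL and psbJ, small subunits encoded in 1 cluster on the same strand, had negative changes of -0.90, -0.68 and -0.69 that did not pass. Of these psbE, a subunit of cytochrome b559, had 1.31, 1.86 and 8.94 FPKM in atino80-6, against 6.87, 4.57 and 5.24 FPKM in wild type. It was low in 2 atino80-6 libraries and high in atino80-6 3, and passed without that library (log2 change -1.69, limma adjusted p = 0.0090).

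The ATP synthase, which makes ATP from the proton gradient across the thylakoid, was the role with the most calls, 3 of 6 tested genes up and 0 down, with a median log2 change of 0.88. All 6 were positive with 6 libraries and also without atino80-6 3, where the median was 0.59. atpA, for the alpha subunit, had 6.40, 5.85 and 12.5 FPKM in atino80-6, against 4.03, 3.32 and 2.76 FPKM in wild type. The means differed 2.45-fold (log2 change 1.21 ± 0.28, limma adjusted p = 0.011), and atino80-6 3 was the highest library. The log2 change was 0.87 without that library.

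The remaining calls of the ATP synthase were a pair of genes of 1 cluster. atpB, for the catalytic beta subunit, had 7.25, 7.94 and 9.89 FPKM in atino80-6, against 4.93, 5.13 and 3.28 FPKM in wild type. atpE, for the epsilon subunit of the central stalk, had 7.73, 7.65 and 10.4 FPKM in atino80-6, against 4.24, 3.58 and 3.31 FPKM in wild type. Neither gene overlapped between the genotypes, with folds of 1.88 for atpB (log2 change 0.92 ± 0.20, limma adjusted p = 0.0075) and 2.31 for atpE (1.18 ± 0.22, limma adjusted p = 0.0042). The annotated genes share 4 bases and are read from the same strand, so a read at that joint cannot be assigned with certainty. atpF, atpH and atpI, for membrane subunits whose genes stand beside atpA on the same strand, had log2 changes of 0.84, 0.66 and 0.25. None of these passed, and atino80-6 3 was 2.99, 3.08 and 1.11 times the mean of the other libraries for these genes.

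**Figure D2:**
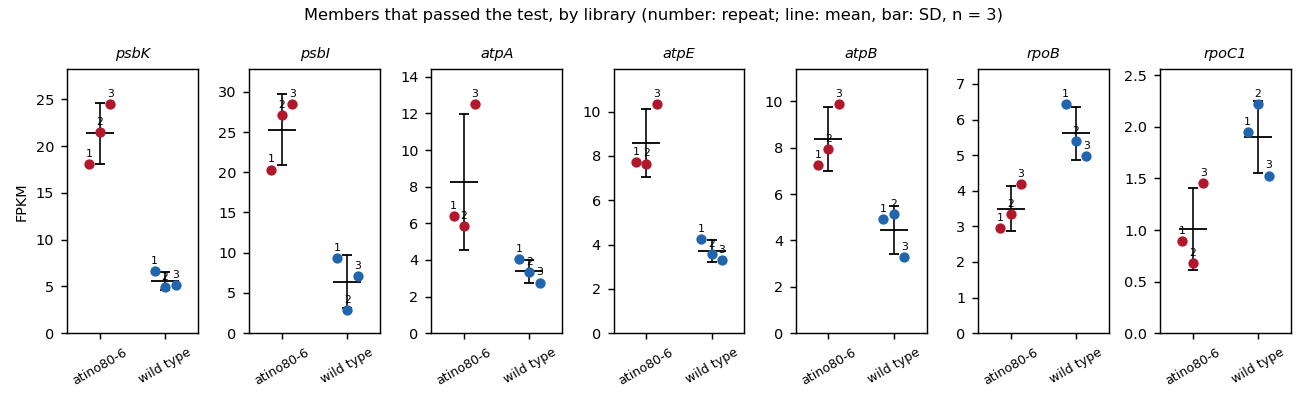
FPKM of the 7 chloroplast genes that passed the test, in each of the 3 atino80-6 libraries (red, left) and 3 wild type libraries (blue, right), with the repeat number beside each point, the mean as a line and the SD as a bar. All atino80-6 points lie above all wild type points for psbK, psbI, atpA, atpE and atpB, and below them for rpoB and rpoC1.

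The plastid-encoded RNA polymerase was the role with the only calls in the other direction among all 67 genes, 2 of 4 tested genes down and 0 up. rpoB, for the beta subunit, had 2.94, 3.35 and 4.18 FPKM in atino80-6, against 6.44, 5.40 and 4.98 FPKM in wild type. rpoC1, for the beta' subunit, had 0.894, 0.679 and 1.46 FPKM in atino80-6, against 1.95, 2.22 and 1.53 FPKM in wild type. Both fell with no overlap between the genotypes, to 0.623 of the wild type mean for rpoB (log2 change -0.69 ± 0.16, limma adjusted p = 0.0092) and 0.531 for rpoC1 (-0.96 ± 0.29, limma adjusted p = 0.031). The values of rpoB rest on 172 to 251 reads in atino80-6 and 378 to 503 in wild type, those of rpoC1 on 41 to 77 and 105 to 137. The call of rpoC1 was lost without atino80-6 1, atino80-6 2, wild type 1 or wild type 2 (limma adjusted p between 0.069 and 0.11). The closest pair of libraries of rpoC1 were atino80-6 3 and wild type 3.

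rpoB and rpoC1 lie 26 bases apart on the same strand in the annotation and are followed by rpoC2. rpoC2, for the beta'' subunit, had 0.627, 0.352 and 1.23 FPKM in atino80-6, against 0.649, 0.836 and 0.689 FPKM in wild type. It overlapped, with a log2 change of -0.15 ± 0.40. rpoA, for the alpha subunit, lies elsewhere on the genome and had a log2 change of -0.32 ± 0.35. Without atino80-6 3 all 4 were more negative, from -0.60 for rpoC2 to -1.25 for rpoC1.

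Photosystem I, which passes electrons on to ferredoxin, had 5 tested genes, none of which passed. psaB had 2.45, 2.09 and 9.44 FPKM in atino80-6, against 2.41, 2.71 and 1.33 FPKM in wild type. psaA, which encodes the partner of the PsaB reaction centre protein, had 2.13, 2.19 and 7.88 FPKM in atino80-6, against 2.20, 2.59 and 1.34 FPKM in wild type. Apart from atino80-6 3 the libraries of both genotypes overlapped, and the log2 changes of 0.82 for psaB and 0.75 for psaA became 0.13 and 0.13 without it. psaC, for the iron-sulphur subunit, psaI and psaJ were between 0.24 and 1.01.

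The cytochrome b6f complex, which links the photosystems, had 4 tested genes with log2 changes between 0.28 and 0.92 and no call. petD, for subunit IV, had 0.693, 0.630 and 4.82 FPKM in atino80-6, against 1.28, 0.849 and 0.346 FPKM in wild type. The change was 0.80 ± 0.77, and -0.13 without atino80-6 3. petN, a small subunit, was the member whose genotypes did not overlap, with 19, 19 and 65 reads in atino80-6 and 20, 16 and 18 reads in wild type before scaling for depth.

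rbcL, for the large subunit of the carbon-fixing enzyme Rubisco, changed sign without 1 library. It had 3.79, 4.21 and 37.9 FPKM in atino80-6, against 6.85, 7.96 and 4.78 FPKM in wild type. Both low atino80-6 libraries were below every wild type library, and atino80-6 3 was above them all. Its log2 change was 0.41 ± 0.76 with 6 libraries (limma adjusted p = 0.71) and -0.67 without atino80-6 3 (limma adjusted p = 0.045). rbcL stands next to atpB on the opposite strand, 801 bases away between coding starts, and atpB rose where rbcL did not pass.

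The NDH complex, a chloroplast relative of mitochondrial complex I that cycles electrons around photosystem I, was low throughout, with 6 tested genes and no call. ndhA had 0.255, 0.174 and 0.694 FPKM in atino80-6, against 0.381, 0.489 and 0.229 FPKM in wild type, with overlap. ndhK had the highest change of the role, 1.09 ± 0.42 (limma adjusted p = 0.075), and passed without atino80-6 1. The counts of ndhH were 4, 10 and 15 reads in atino80-6 and 21, 12 and 1 in wild type, and the genotypes overlapped.

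Ribosomal protein genes were the largest role, 15 tested genes, and none passed. Their log2 changes ran from -0.65 for rps2 to 0.76 for rps4, with a median of -0.07 and 9 of 15 negative (11 of 15 without atino80-6 3). rpl32 had 45.4, 55.8 and 48.2 FPKM in atino80-6, against 76.0, 47.8 and 49.5 FPKM in wild type, and overlapped. rps2, the gene just inside the limit with a mean of 10.1 normalized counts, had 0.465, 0.396 and 0.679 FPKM in atino80-6, against 0.812, 0.906 and 0.754 FPKM in wild type. It was lower in all 3 libraries of atino80-6 than in wild type, on 6 to 9 reads and 13 to 14 reads, and did not pass (log2 change -0.65 ± 0.39, limma adjusted p = 0.24).

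The ribosomal RNA genes had the widest spread. The 23S copy ATCG00950 had 1.41, 1.32 and 43.2 FPKM in atino80-6, against 4.14, 2.62 and 1.48 FPKM in wild type. The 16S copy ATCG00920 had 0.923, 0.378 and 34.8 FPKM in atino80-6, against 4.48, 3.77 and 2.10 FPKM in wild type. As for rbcL, atino80-6 1 and 2 were below every wild type library and atino80-6 3 was far above. None of the 4 rows tested passed with 6 libraries (log2 changes -0.48 to 0.78). Without atino80-6 3 all 4 were negative, from -2.41 to -0.88, and ATCG00920 (limma adjusted p = 0.0039) and ATCG01180 (limma adjusted p = 0.046) passed. Each gene has an identical copy in the other arm of the inverted repeat, so the division of reads between the copies is uncertain.

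**Figure D3:**
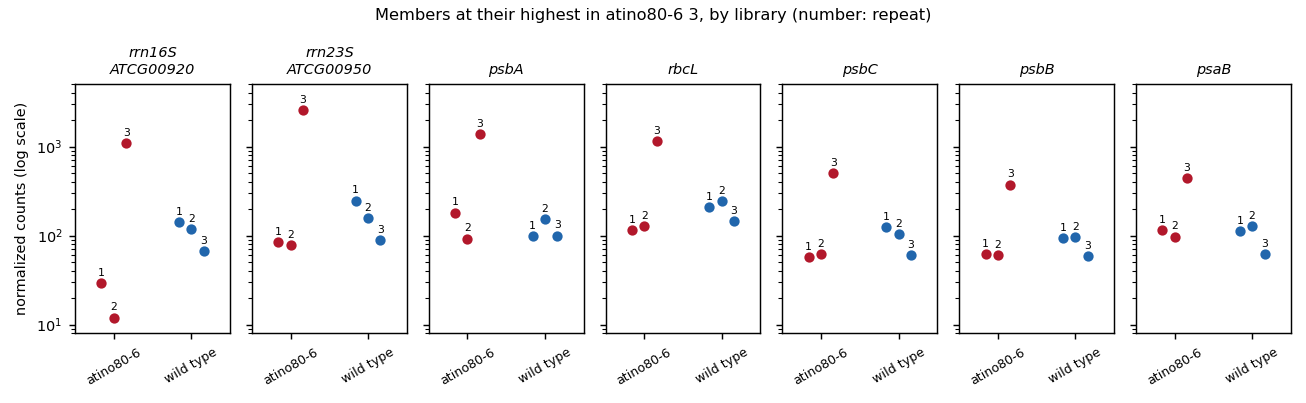
Normalized counts, on a log axis, of 7 chloroplast genes in each atino80-6 library (red, left) and wild type library (blue, right), with the repeat number above each point. In each of the 7, atino80-6 3 is above the other 5 libraries, and for both ribosomal RNA rows and rbcL the other atino80-6 libraries are below wild type.

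Among the remaining genes no member passed. clpP, for the catalytic subunit of the Clp protease, had 3.52, 4.57 and 4.35 FPKM in atino80-6, against 6.15, 4.36 and 5.12 FPKM in wild type, and overlapped (log2 change -0.32 ± 0.17, limma adjusted p = 0.17). accD, for a subunit of the acetyl-CoA carboxylase of fatty acid synthesis, had 0.225, 0.288 and 0.731 FPKM in atino80-6, against 0.675, 0.314 and 0.253 FPKM in wild type. These housekeeping genes, like rpoB, are known as targets of the phage-type polymerase. accD was nearly unchanged with 6 libraries (log2 change -0.05, limma adjusted p = 0.95). Its log2 change was -0.52 without atino80-6 3, where it did not pass either. For both genes the libraries of the genotypes overlapped.

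ycf1, for a component linked to protein import at the inner envelope, had 0.514, 0.394 and 0.550 FPKM in atino80-6, against 0.546, 0.309 and 0.238 FPKM in wild type. cemA, for an envelope protein, had 2.39, 3.54 and 4.59 FPKM in atino80-6, against 3.59, 2.07 and 2.03 FPKM in wild type. Both overlapped, and ycf4, for an assembly factor of photosystem I, had a single read in atino80-6 1 and 32 in atino80-6 3.

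Of the transfer RNA genes 4 reached the limit, which for trnV, trnL and trnG are spans with an intron. trnV had 1.31, 1.74 and 4.70 FPKM in atino80-6, against 2.64, 2.33 and 1.84 FPKM in wild type. trnL and trnG had log2 changes of 1.31 and 1.21 that did not pass, with ratios of atino80-6 3 to the other libraries of 7.54 and 4.29. The 3 genes without a name here also overlapped: ATCG01050 had 1.56, 0.957 and 3.81 FPKM in atino80-6, against 2.06, 2.87 and 1.36 FPKM in wild type, and ATCG00040 and ATCG00360 had log2 changes of 0.59 and 0.68.

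The 42 chloroplast rows below the limit were not tested. They held 16 rows with 10 reads or fewer over all libraries, among them the trnA, trnI and rps7 copies in the inverted repeat. The row just outside was psbZ, a small photosystem II gene with a mean of 9.46 normalized counts and 8, 7 and 25 reads in atino80-6 against 2, 6 and 5 in wild type.

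Taking each role as a share of the chloroplast reads of its own library removes the level of chloroplast RNA in that library. ATP synthase genes made up 19.6%, 19.5% and 7.92% of these reads in atino80-6, against 9.62%, 11.0% and 10.8% in wild type. Polymerase genes made up 10.7%, 9.51% and 3.74% in atino80-6, against 14.0%, 15.3% and 17.7% in wild type. The polymerase share was lower in every atino80-6 library, and the ATP synthase share was higher in 2 of the 3. Ribosomal RNA took 6.27%, 4.44% and 36.2% of the reads in atino80-6, against 14.8%, 11.0% and 8.66% in wild type, which lowers every other share in atino80-6 3. With the ribosomal RNA rows left out of the total, a choice made after seeing these values, ATP synthase genes had 20.9%, 20.4% and 12.4% in atino80-6, against 11.3%, 12.4% and 11.8% in wild type, where atino80-6 3 and wild type 2 were about equal.

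Gene by gene, 3 of the 67 shares were higher in all atino80-6 libraries than in all wild type ones (trnG, trnL and psaC) and 11 were lower, rpoB and rpoC1 among them. Without the ribosomal RNA rows psbK, psbI, atpA, atpF and petN joined the higher ones, making 8, and 10 were lower. Shares of chloroplast reads exist for chloroplast rows alone, so these counts have no like share over all tested genes. A ratio of a pair of genes within a library needs no scaling at all, and the pairs given here were also picked after their values were seen. atpA over rpoB, in FPKM, was 2.17, 1.74 and 3.00 in atino80-6, against 0.626, 0.615 and 0.554 in wild type. rpoB over atpB was 0.406, 0.423 and 0.423 in atino80-6, against 1.31, 1.05 and 1.52 in wild type. In both ratios atino80-6 3 lay on the same side of wild type as its fellow libraries. That was fixed beforehand, as atpA and atpB lay above wild type and rpoB below it in every atino80-6 library. The library atino80-6 3 lay on the other side for atpB over rbcL. That ratio was 1.91, 1.89 and 0.261 in atino80-6, against 0.720, 0.645 and 0.685 in wild type. psbK over psbM was 0.453, 0.666 and 0.695 in atino80-6, against 0.122, 0.123 and 0.166 in wild type.

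**Figure D4:**
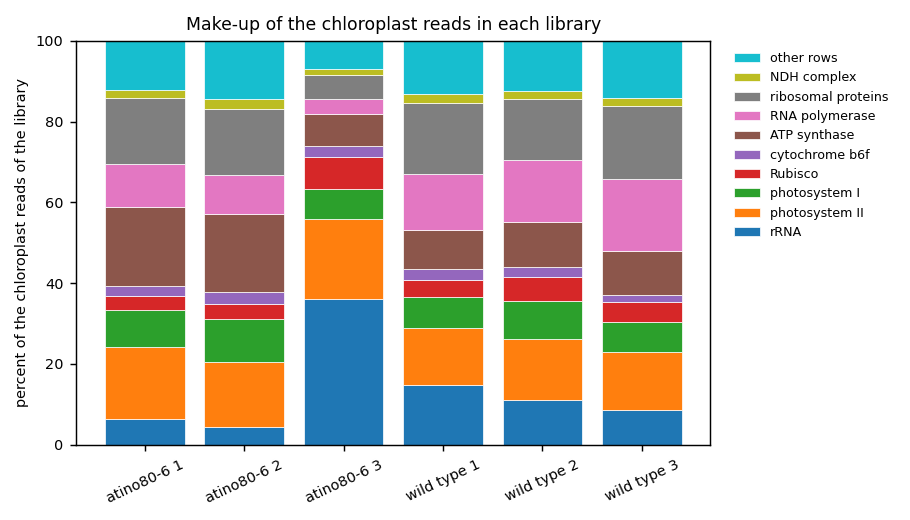
Percent of the chloroplast reads of each library that fell on each role, with the 3 atino80-6 libraries left of the 3 wild type libraries. The share of ribosomal RNA reaches 36.2% in atino80-6 3 and lies between 4.44% and 14.8% elsewhere, and the polymerase share is lowest in the 3 atino80-6 libraries.

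The nuclear genes that serve these plastid genes were listed by function and counted in the same fit. In that fit 17.7% of all tested genes rose and 16.6% fell. Nuclear subunits of the complexes that also hold chloroplast-encoded subunits rose in 37 of 37 tested genes, with a median log2 change of 1.87, against 0.40 for the chloroplast genes. Without atino80-6 3, 36 of the 37 rose, with a median of 1.94. NDHU, of the NDH complex, was 46.6-fold higher on a wild type mean of 9.84 normalized counts, RBCS1B, a small subunit of Rubisco with near-identical copies, 39.2-fold and PSBO2, of the water-splitting side of photosystem II, 11.4-fold. Each passed limma (adjusted p at most 0.00015).

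For transcription itself, 5 of 6 sigma factor genes rose and 0 fell, with the same counts without atino80-6 3. SIG5 had 699, 558 and 499 normalized counts in atino80-6, against 35.9, 28.3 and 29.7 in wild type, an 18.7-fold difference, and SIG3 and SIG1 were 2.56-fold and 2.16-fold higher. SIG6 rose 1.82-fold, while SIG2, with 637, 724 and 703 normalized counts in atino80-6 against 794, 743 and 626 in wild type, overlapped and did not pass (log2 change -0.06, limma adjusted p = 0.69). RPOTp, the plastid phage-type polymerase, had 839, 807 and 648 normalized counts in atino80-6, against 359, 347 and 441 in wild type, and rose 2.00-fold (limma adjusted p = 0.00062). The other 2 phage-type polymerase genes did not pass. Of 12 proteins that attach to the plastid-encoded polymerase 8 rose and 0 fell (10 and 0 without atino80-6 3), with PAP9 at 2.05-fold, PAP4 at 1.92-fold (both superoxide dismutases) and PAP12 at 1.86-fold.

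Nuclear factors that process, stabilise or edit plastid RNA rose in 16 of 21 tested genes, and 1 fell, with the same counts without atino80-6 3. The largest rises were those of CSP41B (10.8-fold) and CSP41A (9.64-fold), RNA-binding proteins of the plastid, and HCF173 (7.96-fold), which is needed for translation of psbA RNA. RNJ, the plastid ribonuclease J, named because it was the gene that fell, had 251, 197 and 162 normalized counts in atino80-6, against 591, 511 and 539 in wild type. It reached 0.372 of the wild type mean (log2 change -1.44 ± 0.16, limma adjusted p = 0.00023). In contrast to the chloroplast genes, the medians of the factors for RNA processing (0.56) and of the polymerase-associated proteins (0.57) were not lower without atino80-6 3, where they were 0.68 and 0.66.

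**Figure D5:**
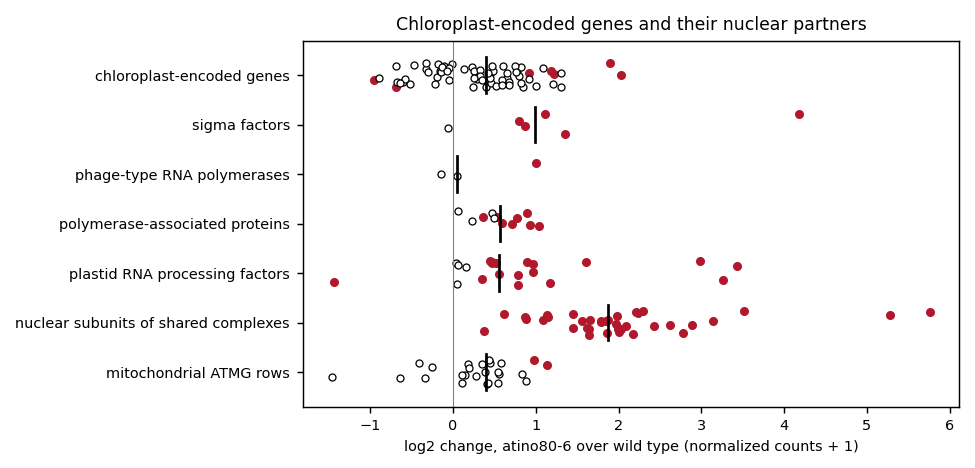
Log2 change of atino80-6 over wild type for the chloroplast genes and for each list of nuclear partners and mitochondrial rows, with red points for genes past the test, open points for the others and a black bar at the median of each row. The 37 nuclear subunits of shared complexes are all red and lie to the right of 0, whereas most of the 67 chloroplast genes are open points on both sides of it.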

How the data were processed

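Per the submitters' processing notes the authors used cutadapt and FastQC, HISAT2, featureCounts, SAMtools, deepTools and DESeq2, and the build TAIR10, with the annotation and strand setting not given in the sources used here. Per the labels, RNA was extracted with TRIzol and libraries were made with a TruSeq RNA kit. The authors deposited FPKM values scaled with DESeq2 size factors, whereas the design assumed normalized counts. These were recovered as FPKM times baseMean over the gene's mean FPKM, and dividing by the smallest value of each library made all 146922 values whole to within 0.02 reads. The authors also deposited a DESeq2 table with a mean signal, log2 fold changes and their errors, a score (change over error) and p-values.

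Chloroplast rows carry no names in the table or the reference. They were named by matching the gene length implied by FPKM to the RefSeq annotation of TAIR10.1: of the 67 tested rows, 56 matched by length alone, 8 by length and standard name, and 3 stay as locus identifiers. Coordinates are those of TAIR10.1.

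limma 3.58.1 (R 4.3.3, empirical Bayes with trend, two-sided) was fitted on log2(normalized count + 1) for 20222 genes with a baseMean of at least 10. It was also run on counts simulated with the same spread for every gene and no library standing apart. That run was thus no test for the chloroplast genes, where 1 library stood apart. Errors of log2 changes are standard errors with 3 libraries a group, and folds are ratios of mean normalized counts. Alternatives tried were each library left out, wild type 1 and atino80-6 3 left out, a block on the repeat number, equal totals, TMM factors, quantile normalization, voom on the reads, robust empirical Bayes, pseudocounts of 5 and 0.5, a baseMean of 50 or no limit, and the authors' table. Tables and plots used matplotlib 3.10.9, scipy 1.17.1, pandas 2.3.3, numpy 2.4.6 and Python 3.11.15.

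The genes, the lists and the tests were chosen with earlier results of these data known. Values in every library are given for the genes past the test and the most abundant gene of each role by the names given here. They are also given for psbA, rbcL, psaA, rpoB, accD, clpP and the genes at the limit. psbM, psbE, psbZ, rpoC2, petN, ndhH, ycf4 and ATCG00920 were added after their values were seen. The same rule asked for ycf2, which is not analysed here, and ndhB, whose row was not named. From the lists it took up to 3 genes past the test each, with SIG2, SIG6 and RPOTp.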

Additional observations from a re-analysis of the deposited data

How the results depend on the processing

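Of the 7 calls, psbK, psbI, atpA, atpB, atpE and rpoB held in every alternative run (psbI was not tested at a baseMean of at least 50), and rpoC1 held in 13 of 18. With the repeat number as a replicate block 1 gene fell in place of 2, since rpoC1 reached a limma adjusted p of 0.053. Same-numbered libraries did not deviate together (correlations 0.027, -0.19 and -0.097), and the other pairs ran from -0.15 to 0.25. With 3 libraries a group, these values cannot settle whether repeats of the same number were handled together. Leaving out 1 library gave 5 to 7 genes up and 1 to 6 down. With wild type 1 and atino80-6 3 both left out, 4 fell. Among these fits, the share of all tested genes called was taken only without atino80-6 3 (19.1% up and 17.5% down). Without atino80-6 3 the log2 change of rbcL turned to -0.67 (-0.67 to 0.98 with 1 library left out) and the chloroplast share difference to -0.00349 percentage points; over the libraries left out that difference ran from -0.00349 to 0.0230. Shares of chloroplast reads higher in all atino80-6 libraries numbered 3, but 6 without the gene with the most reads, 8 without the ribosomal RNA rows and 4 to 14 with 1 library left out; those lower numbered 11, and 12 to 18 with 1 library left out. Leaving out a library can only keep or raise such counts, since fewer libraries have to stay apart. The cause of the other shifts was not tested, beyond the fewer libraries in some of these fits. Among the genes picked by rule for values in every library, those that did not pass changed sign in 23 further cases, mostly with 1 library left out. No scaling moved the median of all tested genes by over 0.1. Many NDH, transfer RNA and small photosystem genes have under 20 reads in a library; the part of depth in the lack of calls among them was not tested.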

Other observations

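The mitochondrial genome, the other organelle genome of these cells, gave 64 rows, of which 26 reached a mean of 10 normalized counts. Of these, 2 rose and 0 fell in atino80-6, whereas 17.7% of all tested genes rose and 16.6% fell. The median log2 change was 0.40. Without atino80-6 3 the median was 0.25, with 2 up and 1 down, against 19.1% and 17.5% of all tested genes. ATMG01390, 1 of the 2, had 7604, 5687 and 11596 normalized counts in atino80-6, against 4914, 3929 and 3431 in wild type. It did not overlap between the genotypes (log2 change 0.97 ± 0.24, limma adjusted p = 0.013, and at most 0.053 with 1 library left out). ATMG00690 had 25.7, 21.9 and 18.2 normalized counts in atino80-6, against 10.5, 9.76 and 7.87 in wild type (log2 change 1.14 ± 0.34, limma adjusted p = 0.029, and at most 0.094 with 1 library left out). Unlike ATMG01390, it was lowest among the atino80-6 libraries in atino80-6 3.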
